A study of Mus musculus with 9 samples.

Results

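The genes described here encode 8 protease inhibitors known from leukocytes: the WAP domain proteins Wfdc17, Wfdc21 and Slpi, the cystatins Cst3, Cstb and Stfa2l1, and the clade B serpins Serpinb2 and Serpinb1a. They are 8 of the 55322 genes in the table of gene expression. They were chosen on their values across the 3 groups of libraries, so their levels and differences are given as a description, without p-values. RNA sequencing had been performed on 9 libraries, 3 in each group. CD11b+ B cells and CD11b- B cells were sorted from the bone marrow (BM) of WT C57BL/6 mice 48 h after an intraperitoneal injection of LPS (5 mg/kg), and peritoneal macrophages (PMs, CD11b+F4/80+) came from naive WT mice. All mice were therefore WT, and the PMs differ from the B cells in tissue as well as in treatment. Before sorting, BM cells bearing CD3, CD4, CD8, Gr-1, NK1.1 or TER119 were depleted. The labels do not say whether the libraries of a group came from separate mice, so the p-values given for other genes measure only the spread between these libraries. Levels are in FPKM, which scales the fragments on a gene to the length of its exons and to the reads on genes of the library, and the libraries held between 18014658 and 35251215 reads on genes.

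The labels were checked against defining markers. The summed level of 13 B cell markers was 13420 to 16824 FPKM in CD11b+ B cells, 13470 to 16102 FPKM in CD11b- B cells and 134 to 258 FPKM in PMs. The summed level of 8 markers of resident PMs was 5066 to 9650 FPKM in PMs, against 66.8 to 78.2 FPKM in CD11b+ B cells and 66.8 to 83.5 FPKM in CD11b- B cells. Icam2, singled out after its values were seen, made up most of the B cell sums (51.3 to 67.2 and 62.3 to 77.1 FPKM). Without Icam2 the rest summed higher in every CD11b+ library than in any CD11b- library. Saa3 (5.00 to 10.7 against 3.09 to 4.51 FPKM), Marco (3.27 to 4.01 against 0.164 to 0.794 FPKM) and Timd4 separated these groups. Selp, Lyve1, Gata6 and Cd209b overlapped. In the CD11b+ B cell libraries 16 neutrophil markers summed to 673, 1614 and 219 FPKM in replicates 1, 2 and 3, against 1.85 to 3.19 FPKM in CD11b- B cells and 68.6 to 98.1 FPKM in PMs. All 16 had reads in both B cell groups, and the granulocyte surface marker Ly6g, at 1.34, 2.51 and 1.96 FPKM in CD11b+ B cells, was at 0 in every PM library. The 14 monocyte and macrophage markers summed to 313, 291 and 133 FPKM in CD11b+ B cells, 52.4 to 57.5 FPKM in CD11b- B cells and 19857 to 54593 FPKM in PMs, with Cd300e at 0 in every CD11b- B cell library. Of the 16 neutrophil markers limma called 3 higher in the CD11b+ group when compared with CD11b- B cells, edgeR called 10 and DESeq2 14, and 13 were higher without overlap. Of the 14 monocyte and macrophage markers limma called 0 higher, with 10 at an unadjusted p under 0.05, edgeR 1 and DESeq2 10, and 11 were higher without overlap. Over all 21778 genes tested, limma called 0.0689% higher, and 8.63% were higher without overlap. Over all genes edgeR called 42 higher and DESeq2 328. The marker values stand beside every difference between the B cell groups given below.

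Proteases released by neutrophils and macrophages cut extracellular matrix, cytokines and the cell's own contents, and leukocytes make the inhibitors that hold them in check. WAP domain proteins carry a small fold held together by disulfide bonds between cysteines, and Slpi blocks neutrophil elastase and cathepsin G. Cystatins sit in the active site cleft of papain-like cysteine proteases such as cathepsins B, L and S; Cst3 is secreted, whereas Cstb and the stefin Stfa2l1 lack a signal peptide and stay in the cell. Serpins are cut by their target and trap it: Serpinb1a acts on neutrophil elastase, cathepsin G and proteinase 3, and Serpinb2, also called PAI-2, acts on urokinase-type plasminogen activator.

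Coding sequences are shown for the WAP domain genes and the cystatins, whose short inhibitory folds can be read from them. For the WAP domain genes, the coding sequence (without the stop codon, from the gene strand) is shown with the codons for cysteine in capitals, because the spacing of the cysteines is the signature of the fold. Wfdc17 has 76 codons, 9 of them for cysteine, and Wfdc21 has 63 codons, 6 of them for cysteine. Slpi has 131 codons, 17 of them for cysteine, and codons 32 to 131 are shown, which hold both of its WAP domains.
Wfdc17: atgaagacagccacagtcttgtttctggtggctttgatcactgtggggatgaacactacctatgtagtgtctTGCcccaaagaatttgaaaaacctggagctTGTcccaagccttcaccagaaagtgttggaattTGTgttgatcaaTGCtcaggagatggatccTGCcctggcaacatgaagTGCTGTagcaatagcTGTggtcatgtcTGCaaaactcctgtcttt
Wfdc21: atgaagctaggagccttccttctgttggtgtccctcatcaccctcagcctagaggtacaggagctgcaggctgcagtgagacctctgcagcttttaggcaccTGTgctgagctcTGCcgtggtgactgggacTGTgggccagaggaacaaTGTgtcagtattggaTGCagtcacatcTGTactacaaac
Slpi: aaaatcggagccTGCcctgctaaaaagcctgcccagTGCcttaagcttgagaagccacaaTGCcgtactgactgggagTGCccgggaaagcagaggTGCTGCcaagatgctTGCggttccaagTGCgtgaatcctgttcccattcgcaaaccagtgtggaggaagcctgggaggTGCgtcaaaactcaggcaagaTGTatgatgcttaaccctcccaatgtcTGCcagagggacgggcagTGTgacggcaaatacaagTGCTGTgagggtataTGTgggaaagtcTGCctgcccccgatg
The directly adjacent pair of cysteine codons occurs once in Wfdc17 and in each domain of Slpi, and it is not found in the coding sequence of Wfdc21. For the cystatins, 20 codons are shown around the conserved loop that enters the protease cleft, with the 5 codons of the loop (glutamine, any residue, valine, any residue, glycine) in capitals. The loop starts at codon 75 of 140 in Cst3, at codon 46 of 98 in Cstb and at codon 52 of 103 in Stfa2l1. The same 5-codon pattern also occurs at codon 134 of 379 in the serpin Serpinb1a, so the letters by themselves do not mark a cystatin.
Cst3: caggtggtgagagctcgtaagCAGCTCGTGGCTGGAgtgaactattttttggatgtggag
Cstb: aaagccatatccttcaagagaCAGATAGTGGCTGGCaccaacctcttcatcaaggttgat
Stfa2l1: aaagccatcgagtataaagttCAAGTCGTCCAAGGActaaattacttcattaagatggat
The sequences and positions are those of GENCODE M21 (GRCm38), matched by Ensembl identifier.

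Wfdc17 and Wfdc21 lie close together on the forward strand of chromosome 11, at 83703991 to 83706268 and at 83746940 to 83752642, with the WAP domain gene Wfdc18 between them. Slpi is on the reverse strand of chromosome 2 at 164354070 to 164389095, where its annotated span also holds the microRNA gene Mir7678, and Cst3 is on the reverse strand of the same chromosome at 148871722 to 148875692. Cstb is on chromosome 10 (78425669 to 78427622, forward strand). Stfa2l1 is on chromosome 16 (36156811 to 36161953, forward strand), within a run of stefin genes. Serpinb2 is on chromosome 1 (107511423 to 107535478, forward strand) and overlaps Serpinb10 on the same strand, and Serpinb1a is on chromosome 13 (32842092 to 32851185, reverse strand). No 50-base stretch of the annotated transcripts of Wfdc17, Wfdc21, Slpi, Cst3 or Cstb occurs in transcripts of another gene. Such stretches make up 24.6% of Stfa2l1 (shared with Stfa2 and Gm49652), 10.4% of Serpinb2 (shared with Serpinb10) and 2.81% of Serpinb1a (shared with Serpinb1b, Serpinb1c and Serpinb1-ps1), so reads could be divided between these genes and their levels are uncertain to that extent.

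PMs had by far more inhibitor RNA than either B cell group, and it came mostly from Wfdc17, Slpi and Cst3. The 8 genes summed to 12494 ± 2321 FPKM (SD, n = 3) in PMs, to 443 ± 26.8 FPKM in CD11b+ B cells and to 417 ± 39.9 FPKM in CD11b- B cells. In PMs Wfdc17 was the gene with rank 7 among all genes by mean FPKM, Slpi had rank 19 and Cst3 rank 21. In the B cell groups, by contrast, Serpinb1a, Cst3 and Cstb were the highest of the 8, with ranks 305, 459 and 523 in CD11b+ B cells and 219, 437 and 607 in CD11b- B cells. The order in PMs was Wfdc17, Slpi, Cst3, Serpinb2, Serpinb1a, Cstb, Wfdc21 and Stfa2l1. Neighbors whose libraries overlapped in that order were Slpi and Cst3, Serpinb2 and Serpinb1a, Serpinb1a and Cstb, and Wfdc21 and Stfa2l1. In CD11b+ B cells the order was Serpinb1a, Cst3, Cstb, Wfdc17, Wfdc21, Slpi, Stfa2l1 and Serpinb2, where Cstb and Wfdc17, and Slpi and Stfa2l1, were the neighbors without overlap. In CD11b- B cells Wfdc17, Wfdc21 and Slpi, at means of 10.3, 9.71 and 8.98 FPKM, could not be separated.

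**Figure D1:**
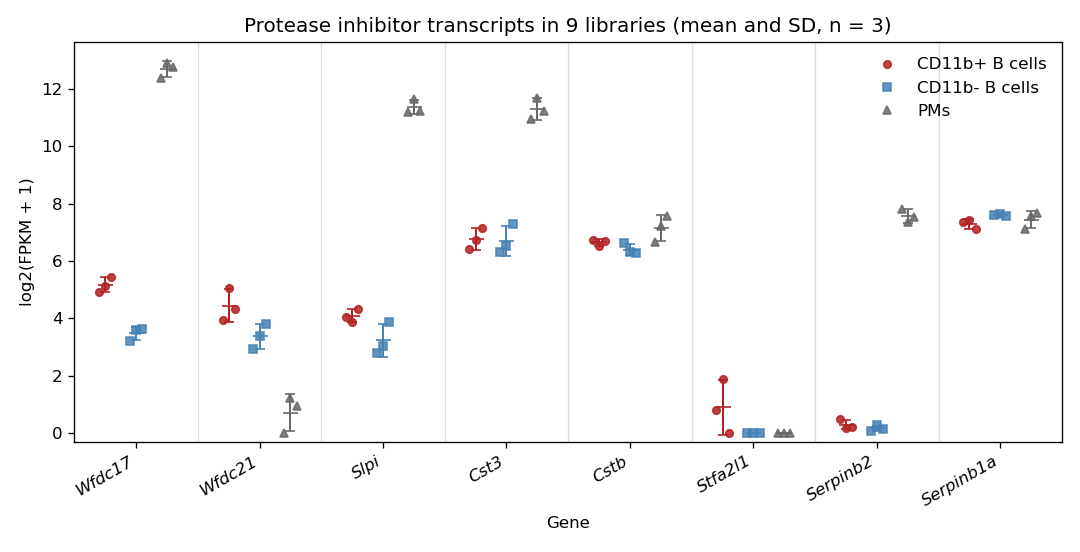
Level of the 8 inhibitor genes as log2(FPKM + 1) in each library of CD11b+ B cells (circles), CD11b- B cells (squares) and PMs (triangles), where the dash and bar are the mean and SD of the 3 libraries of a group. Wfdc17, Slpi, Cst3 and Serpinb2 sit far higher in all 3 PM libraries than in the B cell libraries, Wfdc21 is lowest in PMs, and Cstb and Serpinb1a lie between 76.3 and 202 FPKM in all 9 libraries.

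Of the 8 genes, Wfdc17 had the largest difference between CD11b+ and CD11b- B cells on the log2(FPKM + 1) scale. Its level was 29.6, 34.3 and 43.0 FPKM in the CD11b+ libraries and 8.26, 11.1 and 11.4 FPKM in the CD11b- libraries, so that the lowest CD11b+ library stood above the highest CD11b- library. The means, 35.6 ± 6.79 FPKM and 10.3 ± 1.74 FPKM (SD, n = 3 each), differed 3.47-fold, or by 1.70 on the log2(FPKM + 1) scale (SE 0.19, 95% interval 1.26 to 2.13). PMs held 5377, 7765 and 7067 FPKM, and CD11b+ B cells had 0.529% and CD11b- B cells 0.152% of the mean of PMs. In bulk libraries fewer cells with the RNA and less RNA per cell cannot be told apart. The Wfdc17 level was highest in CD11b+ replicate 3, the library in which the neutrophil and the monocyte and macrophage markers had their lowest sums (219 and 133 FPKM), and lowest in replicate 1, in which the monocyte and macrophage sum was highest. Lyz2 led the monocyte and macrophage sum, at 261, 240 and 65.4 FPKM in CD11b+ replicates 1, 2 and 3. Without Lyz2 the rest of that list summed highest in replicate 3, through Ly6c2 (28.6, 26.4 and 46.1 FPKM). Replicate 3 also had the highest sums of 6 plasma cell markers (228, 203 and 590 FPKM in CD11b+ replicates 1, 2 and 3), of 10 eosinophil, basophil and mast cell markers (6.53, 5.41 and 17.2 FPKM) and of 10 dendritic cell markers (62.2, 68.9 and 88.9 FPKM). All 3 of these sums were higher in every CD11b+ library than in any CD11b- library, where they reached at most 150, 1.99 and 52.1 FPKM. The same held for 10 erythroid and platelet markers (39.3 to 49.7 FPKM against 6.64 to 25.7 FPKM) and 10 T and NK cell markers (3.50 to 6.44 FPKM against 0.638 to 2.66 FPKM), whose sums were lowest in replicate 3 among the CD11b+ libraries. Single genes led some of these sums, and the genes left out here were chosen after their values were seen. Jchain led the plasma cell sum, at 101, 83.9 and 449 FPKM in CD11b+ replicates 1, 2 and 3 and at 6.18 to 22.7 FPKM in CD11b- B cells. Without Jchain the other plasma cell markers still summed highest in replicate 3 among the CD11b+ libraries, but the groups overlapped. Without Bst2 the other 9 dendritic cell markers summed to 10.7, 8.88 and 10.9 FPKM in CD11b+ B cells and to 9.08, 6.94 and 8.77 FPKM in CD11b- B cells, and the groups overlapped. Without Nkg7 and Prf1 the other 8 T and NK cell markers were highest in CD11b+ replicate 3, at 0.936, 1.77 and 2.88 FPKM, and the groups overlapped as well (0.0614 to 2.66 FPKM in CD11b- B cells). The part of other cells in the difference was not tested.

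Wfdc21, also a small secreted WAP domain protein, had the opposite pattern to Wfdc17 with respect to PMs. It was at 14.4, 32.7 and 18.9 FPKM in CD11b+ B cells, at 6.63, 9.57 and 12.9 FPKM in CD11b- B cells, and at 0, 1.34 and 0.913 FPKM in PMs, where 25 reads in all fell on the gene. No library of a B cell group overlapped PMs, and all CD11b+ libraries were above all CD11b- libraries. The mean in CD11b+ B cells was 2.26-fold that in CD11b- B cells (log2 difference 1.07, SE 0.32, 95% interval 0.32 to 1.81) and 29.3-fold that in PMs, and the mean in CD11b- B cells was 12.9-fold that in PMs. Without PM replicate 2 these folds were 48.2 and 21.3, and without PM replicate 1 the latter was 8.62. Its highest library, CD11b+ replicate 2, was also the one with the highest sum of neutrophil markers. The neighboring gene Wfdc18 went with Wfdc17 and not with Wfdc21 in direction: it had 9.28, 9.77 and 7.64 FPKM in PMs, and 0.335 FPKM or less in every B cell library, and was lower than in PMs in CD11b+ B cells (log2 difference -3.08, SE 0.28, adjusted p = 0.000142) and in CD11b- B cells (log2 difference -3.23, SE 0.25, adjusted p = 6.66e-05). These and all adjusted p-values below are from limma with Benjamini-Hochberg adjustment over all genes tested.

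Slpi, the secretory leukocyte peptidase inhibitor, was abundant in PMs, with 2344, 3211 and 2424 FPKM. CD11b+ B cells had 15.8, 13.8 and 19.2 FPKM and CD11b- B cells 5.97, 7.14 and 13.8 FPKM. The groups of B cells overlapped, because CD11b+ replicate 2 and CD11b- replicate 3 were at nearly the same level. The mean in CD11b+ B cells was 1.81-fold that in CD11b- B cells (log2 difference 0.86, SE 0.29, 95% interval 0.20 to 1.52), and the means were 0.611% and 0.338% of that of PMs.

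Among the cystatins, Cst3 was at 84.4, 106 and 141 FPKM in CD11b+ B cells and at 77.9, 92.1 and 157 FPKM in CD11b- B cells. The groups lay over each other (log2 difference 0.06, SE 0.29, 95% interval -0.60 to 0.71), and in both of them replicate 3 was the highest, as it was for Wfdc17 and Slpi. PMs had 1981, 3333 and 2438 FPKM of Cst3, 23.4-fold the mean of CD11b+ B cells and 23.7-fold the mean of CD11b- B cells.

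Cstb, which guards the cell against its own lysosomal cathepsins, lay between 76.3 and 190 FPKM in all 9 libraries. Its level was 105, 91.2 and 103 FPKM in CD11b+ B cells, 97.3, 78.7 and 76.3 FPKM in CD11b- B cells, and 101, 148 and 190 FPKM in PMs. CD11b+ B cells overlapped both other groups, whereas all CD11b- libraries were below all PM libraries. The mean of PMs was 1.47-fold that of CD11b+ B cells (log2 difference of CD11b+ B cells to PMs -0.50, SE 0.25, 95% interval -1.08 to 0.08) and 1.74-fold that of CD11b- B cells (log2 difference -0.76, SE 0.25, 95% interval -1.33 to -0.18).

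Reads on Stfa2l1, a stefin, occurred in CD11b+ B cells and in no library of another group. The CD11b+ libraries had 9, 30 and 0 reads, or 0.731, 2.74 and 0 FPKM, so that most of the 39 reads came from replicate 2 and replicate 3 had none. Pooled over the group the level was 1.03 FPKM. A level of up to 0.0714 FPKM in CD11b- B cells and up to 0.106 FPKM in PMs is compatible with 0 reads (3 reads over the group, counting error only). The pooled level was 14.4-fold and 9.65-fold these limits, with the spread between the CD11b+ libraries left out of account. Without CD11b+ replicate 2 only 9 reads remained and these ratios were 4.66-fold and 3.13-fold, and without replicate 3 they were 23.5-fold and 15.8-fold. Other stefin genes were examined and named after their values were seen. In CD11b+ B cells Stfa1, Stfa2, Stfa3, Cstdc4, Cstdc5 and Cstdc6 were highest in replicate 2, whereas Csta3, within the same run on chromosome 16, was at 0, 0 and 0.579 FPKM and Csta1 at 0.0204 FPKM or less, both highest in replicate 3. Stfa1 was at 1.10, 5.97 and 0 FPKM, Stfa2 at 0.434, 5.92 and 0.422 FPKM, Cstdc5 at 2.50, 5.42 and 0 FPKM and Stfa3 at 0.826, 2.69 and 0.964 FPKM in CD11b+ replicates 1, 2 and 3, and each of these genes was at or below 0.332 FPKM in every other library. With limma these 4 genes did not pass the threshold in CD11b+ B cells against CD11b- B cells, where the lowest adjusted p was that of Stfa3 (log2 difference 1.24, SE 0.28, adjusted p = 0.308), whereas DESeq2 called Stfa2, Stfa3 and Cstdc5 higher. Replicate 2 is also the library in which the neutrophil markers summed to 1614 FPKM, and the part of neutrophils in these reads was not tested.

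**Figure D2:**
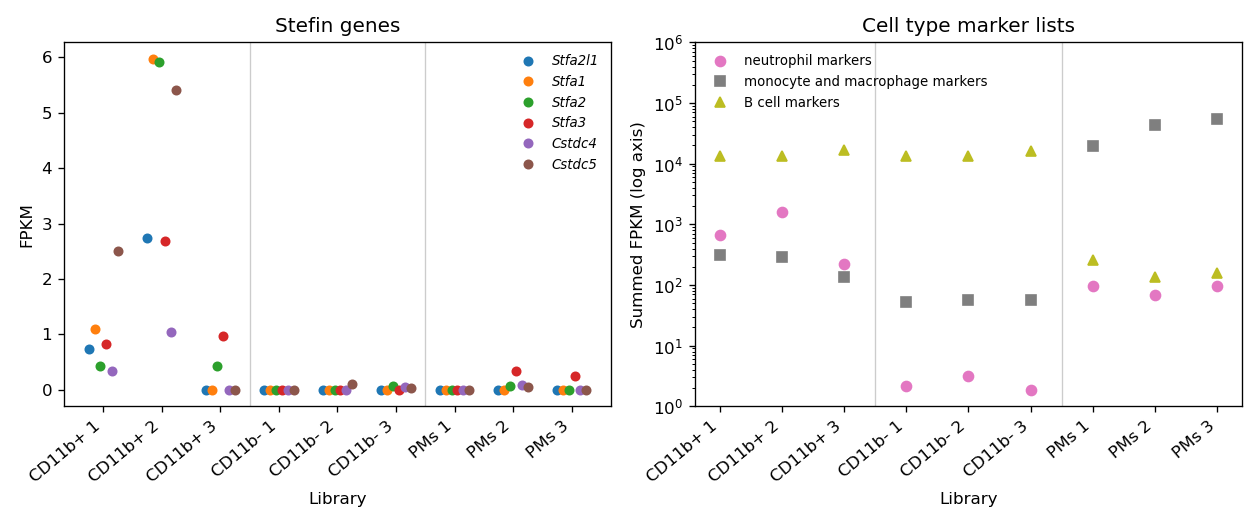
Left, FPKM of Stfa2l1 and 5 other stefin genes in each of the 9 libraries; right, summed FPKM on a log axis of 16 neutrophil markers, 14 monocyte and macrophage markers and 13 B cell markers in the same libraries. CD11b+ replicate 2 has the highest level of each of the 6 stefin genes and the highest neutrophil sum (1614 FPKM). Next to no stefin RNA is seen in the CD11b- libraries, with neutrophil sums of 1.85 to 3.19 FPKM. The same holds for the PM libraries, with neutrophil sums of 68.6 to 98.1 FPKM.

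Both serpins were abundant in PMs, and Serpinb1a was abundant in B cells too. Serpinb2 was at 225, 163 and 185 FPKM in PMs but at 0.406, 0.146 and 0.157 FPKM in CD11b+ B cells and at 0.0638, 0.207 and 0.120 FPKM in CD11b- B cells. The B cell values rest on 50 and 31 reads in all, their groups overlapped, and the mean of PMs was 808-fold that of CD11b+ B cells and 1466-fold that of CD11b- B cells. Without CD11b+ replicate 1 the former was 1259-fold. Serpinb1a, in contrast, was the highest of the 8 genes in both B cell groups, with 162, 172 and 138 FPKM in CD11b+ B cells, 194, 200 and 192 FPKM in CD11b- B cells, and 139, 188 and 202 FPKM in PMs. Every CD11b+ library was below every CD11b- library, and the mean was 80.5% of that of CD11b- B cells (log2 difference -0.32, SE 0.14, 95% interval -0.64 to 0.0040). PMs overlapped both B cell groups. The log2 difference of CD11b- B cells to PMs was 0.17 (SE 0.19) and turned to -0.37 when libraries were scaled by the median ratio of genes, so its direction is not settled.

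**Figure D3:**
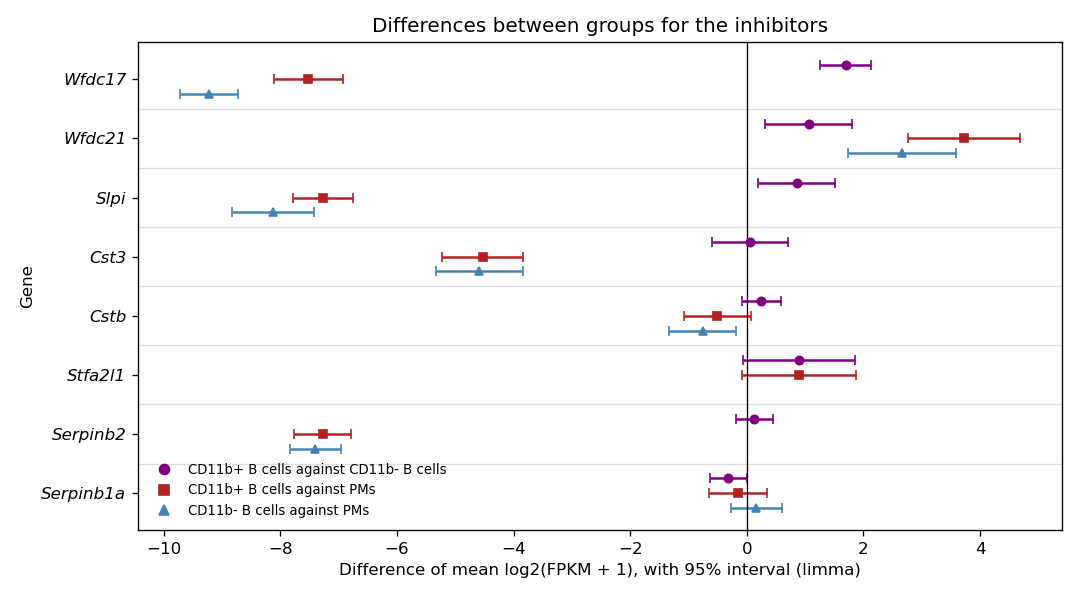
Difference of the group means of log2(FPKM + 1) for each inhibitor gene in the 3 comparisons (points) with the 95% interval from limma (bars); Stfa2l1 has no value for CD11b- B cells against PMs, where it was at 0 in all 6 libraries. Between the B cell groups the point of Wfdc17 lies highest, at 1.70, and against PMs the points of Wfdc17, Slpi and Serpinb2 lie between -9.22 and -7.27.

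The members that passed the test threshold have to be read beside the share of all genes that did, and since the members were chosen on these values nothing is drawn from the counts. In CD11b+ B cells against CD11b- B cells all 8 were tested; 1 was called higher (Wfdc17) and 0 lower, where 0.0689% of all genes were called higher and 0% lower. The groups did not overlap for 2 members that were higher (Wfdc17 and Wfdc21) and for 1 that was lower (Serpinb1a), where 8.63% of all genes were higher and 6.32% lower without overlap. The call of Wfdc17 held under 9 of 18 alternatives. It was lost without the filter on FPKM (log2 difference 1.70), after quantile normalization (1.71), without the trend (1.70), with edgeR (1.78), and without 1 library for CD11b+ replicate 1 (1.82) or 2 (1.72) and for CD11b- replicate 1 (1.56), 2 (1.76) or 3 (1.77), although the log2 difference stayed between 1.56 and 1.82 in all 18. Against PMs, CD11b+ B cells had 1 member called higher (Wfdc21) and 4 lower (Wfdc17, Slpi, Cst3 and Serpinb2), where 21.5% of all genes were called higher and 8.78% lower; the same members did not overlap, where 34.3% of all genes were higher and 12.4% lower without overlap. In CD11b- B cells against PMs 7 members were tested; 1 was called higher (Wfdc21) and 5 lower (the same 4 and Cstb), where 25.8% and 11% of all genes were called, and these 6 did not overlap, where 36.1% and 15.2% of all genes were higher and lower without overlap. The calls of Wfdc17, Slpi, Cst3 and Serpinb2 against PMs held in all 17 alternatives of either comparison, and that of Wfdc21 in all 17 for CD11b+ B cells and in 16 of 17 for CD11b- B cells, where edgeR lost it. The call of Cstb held in 8 of 17 and was lost, among others, without PM replicate 2 or 3 (log2 difference -0.73 and -0.55) and without CD11b- replicate 1, 2 or 3 (-0.86, -0.71 and -0.69). Cstb was not called in CD11b+ B cells against PMs, but it passed the threshold in 4 of 17 alternatives, which were median-ratio scaling (log2 difference -1.002), edgeR (-1.07), DESeq2 (-1.08) and the fit without PM replicate 1 (-0.74). The median log2 difference of the members was 0.56, -2.52 and -4.59 in the 3 comparisons, and that of all genes tested was 0.03, 0.25 and 0.24. The comparisons share libraries and are not independent. Scaling mattered against PMs: with the median ratio of genes, log2 differences shifted by -0.47 for CD11b+ B cells and by -0.50 for CD11b- B cells, and the share of calls that were higher went from 71.0% to 53.3% and from 70.1% to 52.5%. Differences against PMs are given before that shift, and those of Wfdc17, Slpi, Cst3, Serpinb2 and Wfdc21 are larger than it.

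The genes whose levels over the 9 libraries were most like those of each inhibitor, by the root mean square distance of mean-centered log2(FPKM + 1) values among 13924 genes, differed from class to class. For Wfdc17 they were the complement genes C1qa (distance 0.20), C1qc (0.29) and C1qb (0.35), which macrophages make; C1qb was at a mean of 24.7 FPKM in CD11b+ B cells, 5.16 FPKM in CD11b- B cells and 4340 FPKM in PMs. For Slpi they were Cd5l, a secreted macrophage protein (0.26), the LPS co-receptor Cd14 (0.31) and the lipid carrier Apoe (0.37), and for Serpinb2 they were Ms4a8a (0.08), the matrix protein Thbs1 (0.12) and the myelin protein gene Pmp22 (0.19). For Cst3 they were Ninj1 (0.25), Dusp23 (0.32) and Lyve1 (0.33). Wfdc21 had no gene as near, with Snord65 at 0.49, the MHC class II gene H2-Eb2 at 0.50 and Sapcd1 at 0.50. For Stfa2l1 they were Chil1 (0.07), Asprv1 (0.07) and Gm12407 (0.19), which were at means of 1.17, 1.18 and 1.08 FPKM in CD11b+ B cells. Cstb was most like 2610001J05Rik (0.14), Plekhb2 (0.15) and Leprotl1 (0.15), and Serpinb1a most like the interferon gamma receptor gene Ifngr1 (0.05), Enox2 (0.09) and Cdipt (0.10). These distances are a description of 9 libraries in 3 groups and are dominated by the difference between PMs and B cells where that is large.

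To see how the 8 genes stand among their relatives, 84 further WAP domain, cystatin, stefin and serpin genes in the table were examined. In CD11b+ B cells against CD11b- B cells limma called 0.0689% of all genes tested higher and 0% lower. Over all genes edgeR called 42 higher and 0 lower, and DESeq2 called 328 higher and 64 lower. Of the further inhibitors 23 were tested there and limma called 0, with 5 at an unadjusted p under 0.05. With edgeR 0 of them were called, and with DESeq2 5 were called higher. Against PMs, 26 were tested in CD11b+ B cells, of which 6 rose, 4 fell and 16 did not pass the test; in CD11b- B cells 21 were tested, of which 5 rose, 4 fell and 12 did not pass. Of all genes tested, 21.5% rose and 8.78% fell in the former comparison and 25.8% rose and 11% fell in the latter. With DESeq2, 10 were called higher in CD11b+ B cells. The 4 that fell were the same in both groups: Wfdc18 and the clade B serpins Serpinb10, Serpinb8 and Serpinb6a. Serpinb10, which overlaps Serpinb2, was at 98.4, 74.6 and 70.0 FPKM in PMs and at 0.219 FPKM or less in every B cell library (log2 difference of CD11b+ B cells -6.15, SE 0.22, adjusted p = 1.15e-06). Serpinb8, further along chromosome 1 at 107590006 to 107610484, was at 29.2, 20.3 and 26.1 FPKM in PMs and at 0.0637 FPKM or less in the B cell libraries (log2 difference of CD11b+ B cells -4.63, SE 0.25, adjusted p = 8.21e-06). Serpinb7, on the other side of Serpinb2 at 107399655 to 107452689, went the other way at a low level, with 1.69, 0.761 and 0.551 FPKM in CD11b+ B cells and 0, 0 and 0.127 FPKM in PMs (log2 difference 0.90, SE 0.25, adjusted p = 0.0283). That call was lost in 8 of 16 alternatives, among them edgeR and the fits without any 1 of the 3 PM libraries or without CD11b+ replicate 2 (log2 difference 0.87 to 0.97).

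The further inhibitors that rose in B cells against PMs were mostly serpins of clades other than B, 5 of 6 in CD11b+ B cells and 4 of 5 in CD11b- B cells. Serpina3g, which inhibits cysteine cathepsins inside the cell and is known from activated lymphocytes, was at 34.7, 25.2 and 37.0 FPKM in CD11b+ B cells, 21.02, 25.4 and 25.1 FPKM in CD11b- B cells and 1.58, 1.56 and 0 FPKM in PMs. It rose against PMs in CD11b+ B cells (log2 difference 4.13, SE 0.40, adjusted p = 0.000175) and in CD11b- B cells (log2 difference 3.72, SE 0.39, adjusted p = 0.000302). Serpini1, or neuroserpin, rose as well (log2 difference 2.43, SE 0.29, adjusted p = 0.000567 in CD11b+ B cells and 2.41, SE 0.27, adjusted p = 0.000404 in CD11b- B cells), as did Serpina3f (2.08, SE 0.40, adjusted p = 0.00592, and 2.34, SE 0.48, adjusted p = 0.00738). These 3 calls held in all 17 alternatives of each comparison. None of the 3 passed the threshold between CD11b+ and CD11b- B cells, where the log2 difference of Serpina3g was 0.41 (SE 0.17, adjusted p = 0.644). Serpinc1, or antithrombin, and Serpine2 rose in CD11b+ B cells against PMs from lower levels, at 0.319 to 0.890 and 0.274 to 0.616 FPKM, and both calls were lost without any 1 of the PM libraries or without CD11b+ replicate 1 or 2 (log2 difference 0.54 to 0.67 and 0.49 to 0.56). Serpind1, or heparin cofactor II, rose in CD11b- B cells (log2 difference 1.19, SE 0.24, adjusted p = 0.00660), a call that held in 15 of 16 alternatives and was lost with edgeR. Serpinc1, Serpine2 and Serpind1 were named after their values were seen. The median log2 difference of the further inhibitors tested was 0.35 between the B cell groups, 0.59 in CD11b+ B cells against PMs and -0.10 in CD11b- B cells against PMs, beside 0.03, 0.25 and 0.24 over all genes tested. Of the cystatins and stefins other than the members, 7, 7 and 2 were tested in the 3 comparisons and limma and edgeR called 0; at an unadjusted p under 0.05 there were 2, 2 and 0, and DESeq2 called 3, 3 and 0 higher. The shares of all genes that limma called are given above.

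The proteases that these inhibitors can bind were taken as a further list of 24 genes, 13 serine proteases and 11 cysteine cathepsins and legumain. In CD11b+ B cells against CD11b- B cells 17 were tested and limma called 0, with 2 at an unadjusted p under 0.05; edgeR called 1 higher and DESeq2 called 3 higher. Of all genes tested there, limma called 0.0689% higher and 0% lower. Over all genes edgeR called 42 higher and DESeq2 328. Elane, neutrophil elastase, which Slpi and Serpinb1a inhibit, was at 19.5, 8.54 and 4.21 FPKM in CD11b+ B cells and at 0.0305, 0 and 0 FPKM in CD11b- B cells. Its log2 difference of 3.32 (SE 0.46) had an adjusted p of 0.0764 and passed the threshold in 7 of 18 alternatives, edgeR, DESeq2 and the fit without CD11b+ replicate 3 among them. Elane is itself one of the 16 neutrophil markers. Against PMs (0.113, 0 and 0.755 FPKM) it rose in CD11b+ B cells (log2 difference 3.01, SE 0.52, adjusted p = 0.00349). Prtn3, proteinase 3, had its highest level in PMs, at 177, 215 and 121 FPKM, against 5.19, 4.10 and 0.884 FPKM in CD11b+ B cells and 0.138, 0.116 and 0.216 FPKM in CD11b- B cells. It fell against PMs in CD11b+ B cells (log2 difference -5.42, SE 0.44, adjusted p = 7.24e-05) and in CD11b- B cells (log2 difference -7.18, SE 0.24, adjusted p = 9.15e-07). The mast cell proteases Tpsb2 and Cma1 fell against PMs too. In PM replicates 1, 2 and 3 Tpsb2 was at 1.25, 4.08 and 6.25 FPKM. The 10 eosinophil, basophil and mast cell markers summed to 0.0398, 0.844 and 1.86 FPKM in these libraries, and the part of mast cells was not tested. In CD11b+ B cells the log2 difference was -2.12 for Tpsb2 (SE 0.44, adjusted p = 0.00837) and -2.19 for Cma1 (SE 0.65, adjusted p = 0.0352). The call of Cma1, at 0.458, 6.66 and 7.73 FPKM in PMs, was lost without PM replicate 2 or 3 or without any 1 CD11b+ library (log2 difference -2.20 to -1.73). The list of proteases had median log2 differences of 0.19, -0.10 and -1.005 in the 3 comparisons, beside 0.03, 0.25 and 0.24 over all genes tested.

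Of the cysteine proteases, which the cystatins bind, 11 were tested against PMs; 5 fell in both B cell groups, 1 rose in CD11b+ B cells and 2 rose in CD11b- B cells. Over all genes tested, 8.78% fell and 21.5% rose in the CD11b+ comparison, against 11% and 25.8% in the CD11b- comparison. Ctsl was at 24.7, 31.3 and 26.0 FPKM in PMs and at 0.446 to 1.48 FPKM in the B cell libraries (log2 difference of CD11b+ B cells -3.98, SE 0.28, adjusted p = 3e-05). Ctsb was at 304, 393 and 406 FPKM in PMs and at 21.6 to 39.8 FPKM in the B cell libraries (log2 difference of CD11b+ B cells -3.63, SE 0.24, adjusted p = 2.17e-05). Ctss, which trims the invariant chain of MHC class II in antigen-presenting cells, stayed high in B cells: 518, 493 and 548 FPKM in CD11b+ B cells and 502, 499 and 379 FPKM in CD11b- B cells, against 1168, 1526 and 1487 FPKM in PMs (log2 difference of CD11b+ B cells -1.41, SE 0.25, adjusted p = 0.00408). Ctsf, the third of the genes with the largest fall, fell in CD11b+ B cells against PMs (log2 difference -1.94, SE 0.57, adjusted p = 0.0356), a call lost without PM replicate 2 or 3 or without any 1 CD11b+ library (log2 difference -1.99 to -1.36). Ctso rose in both B cell groups against PMs (log2 difference 1.78, SE 0.19, adjusted p = 0.000321 in CD11b+ B cells and 1.74, SE 0.17, adjusted p = 0.000187 in CD11b- B cells). The call of Ctsc in CD11b- B cells (log2 difference 0.71, SE 0.23, adjusted p = 0.0445) was lost in 13 of 17 alternatives, among them the fits without any 1 of the PM libraries or without CD11b- replicate 1 or 2 (0.52 to 0.80). The level of all 11 genes together was 1122 to 1324 FPKM in CD11b+ B cells, 1006 to 1247 FPKM in CD11b- B cells and 2070 to 2830 FPKM in PMs. Ctss, along with the other genes of the plot of proteases that the naming rule did not pick, was named after the values were seen.

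**Figure D4:**
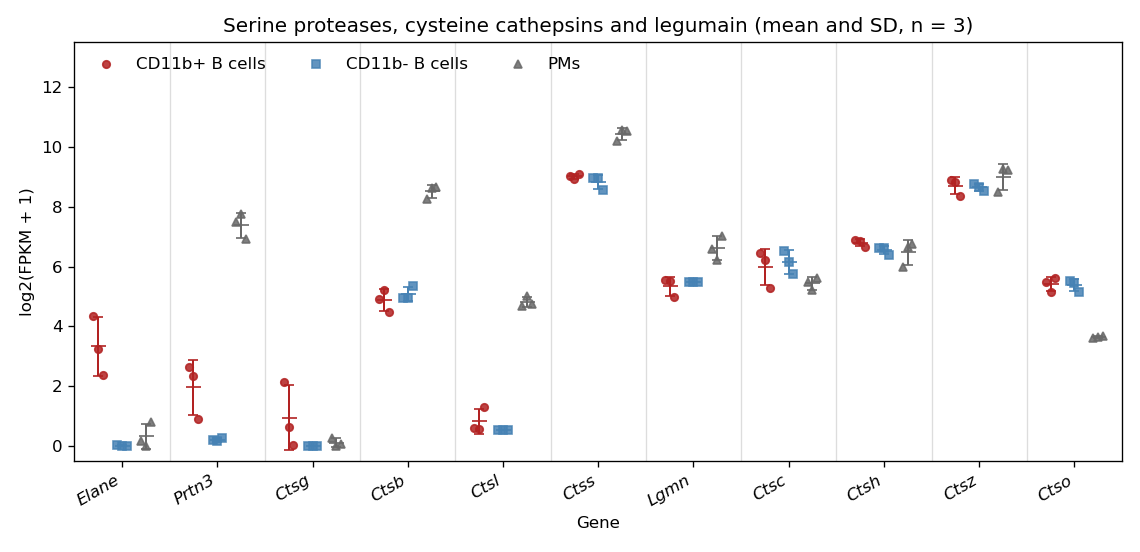
Level as log2(FPKM + 1) of 3 serine proteases and 8 cysteine proteases in each library, with the mean and SD of the 3 libraries of a group. Elane is above 4 FPKM in all 3 CD11b+ libraries and below 1 FPKM in all other libraries, Prtn3, Ctsl and Ctsb are highest in PMs, and limma called neither Ctsh nor Ctsz in any of the 3 comparisons, whereas Ctsz was called against PMs with DESeq2 in both B cell groups and with edgeR in CD11b- B cells.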

How the data were processed

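The authors made full-length cDNA libraries from the sorted cells with a SMART-seq HT kit, sequenced read pairs, trimmed them (Trim Galore 0.4.4, Trimmomatic 0.36, cutadapt 1.16), mapped them with STAR 2.7.2b to GRCm38 and counted reads on genes with featureCounts 1.6.1; versions are from the submitters' processing notes, which name GRCm39 too. No source used here says if the counting was stranded. The main deposited table holds FPKM values of 55322 genes in 9 libraries. The deposited second table, a normalized signal per gene for 11063 genes, holds the same reads divided by a size factor per library and served only to check them. Whole reads were recovered from the FPKM values for 100% of the values above 0, within 0.05 read, in every library; reads on genes ranged from 18014658 to 35251215.

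Libraries were grouped by their labels. Log2(FPKM + 1) values, where the pseudocount of 1 shrinks the change of low genes, were compared with limma 3.58.1 (trended empirical Bayes, two-sided) over the 6 libraries of each comparison, for genes with a mean of at least 0.05 FPKM, and p-values were adjusted by Benjamini-Hochberg over all genes tested with a threshold of 0.05. Alternatives were other pseudocounts, filters and scalings, 1 fit over all 9 libraries, replicate blocks, leaving out each library, and edgeR 4.0.16 and DESeq2 1.42.0 on the recovered reads. The 8 members, the lists of further inhibitors and proteases and the marker lists were chosen with earlier results of these data known. Of 91 further inhibitor symbols 84 were in the table. Named genes are the members, the 3 called genes with the largest change in each direction per list (4 lists of inhibitors by class, 2 of proteases) and comparison with PMs, and the 3 genes most like each member among those with a mean of at least 1 FPKM in a group; others are said to be named after their values were seen. Positions are from GENCODE M21 by identifier, and 52046 of the 55322 identifiers are in it.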

Additional observations from a re-analysis of the deposited data

How the results depend on the processing

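The number of genes called between CD11b+ and CD11b- B cells, 15 with limma, depended on the settings: it was 37 and 25 with a pseudocount of 0.1 and 0.01, 2 without a filter on FPKM, 31 with a minimum mean of 1 FPKM, 36 with all 9 libraries in 1 fit, 9 after quantile normalization, 42 with edgeR and 392 with DESeq2 (328 higher and 64 lower), and from 3 to 40 when a library was left out; the cause was not tested. The further inhibitors called rose from 0 to 5 with DESeq2. The proteases called rose from 0 to 1 with either other pseudocount, with a minimum mean of 1 FPKM, with all 9 libraries in 1 fit and with edgeR, to 3 with DESeq2, and lay between 0 and 2 when a library was left out. In both comparisons with PMs the totals of genes, further inhibitors and proteases called, both directions together, stayed within 1.5 times the values given, but the split by direction did not: with median-ratio scaling, quantile normalization, edgeR or DESeq2 the genes called higher went from 4760 to between 2706 and 3544 in CD11b+ B cells and from 5404 to between 3200 and 3697 in CD11b- B cells, and those called lower from 1940 to between 2564 and 3403 and from 2306 to between 3086 and 4012. The further inhibitors called higher in CD11b+ B cells went from 6 to 10 with DESeq2. Of 394 values of the members' log2 differences under an alternative, 7 had the other sign, all of them for Cst3 between the B cell groups or for Serpinb1a in CD11b- B cells against PMs, neither of which had passed the threshold. Stfa2l1 and Serpinb2 have no value under some of the stricter filters, which remove them. The labels do not say what a shared replicate number stands for. The deviations of CD11b+ and CD11b- libraries with the same number in the title correlated at 0.203, -0.0115 and 0.167; the pairs numbered 1 and 3 also share the number in the description, whereas pair 2 does not and its libraries correlated better with another number, and no pair without a shared number was above 0.0988. With a replicate block by title number, and with one by description number, 16 genes were called between the B cell groups, and Wfdc17 kept its call in both. Serpinb2 and Stfa2l1 in B cells rest on 50 reads or fewer per group, in libraries of 26174718 to 35251215 reads, and differences of genes at this level are shrunk by the pseudocount.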
